A study of Mus musculus with 12 samples.

Results

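The genes described here carry MHC class I antigen presentation and its immunoproteasome in mouse liver. They were taken by name as the 10 rows Psmb8, Psmb9, Psmb10, Psme1, Psme2, Tap1, Tap2, Tapbp, B2m and H2-K1, and all 10 were among the 11289 genes of the deposited table. Liver mRNA of 12 C57BL/6J mice, aged 8 to 10 weeks by the sample labels, was sequenced in 3 groups of 4 animals. For the Control group the labels name no agent. In the Con A group, a tail vein injection of concanavalin A (15 mg/kg), a lectin from beans that sets off T cells, was followed 30 min later by PBS. In the Con A + MSCs group the same Con A injection was followed after 30 min by mesenchymal stem cells from human Wharton's jelly of the umbilical cord. Livers were taken at 24 h. The labels and the methods of the study give different numbers of cells and different ages, the cells are human cells in a mouse with its own immune system, and the liver was sequenced whole, so fewer cells of a type and less RNA per cell cannot be told apart in any value below.

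Class I molecules display short peptides from inside the cell to cytotoxic T cells. The peptides are cut by the proteasome, whose 3 constitutive catalytic subunits are exchanged for inducible counterparts under interferon-gamma to form the immunoproteasome, and the PA28 cap opens the barrel for peptide exit. The TAP transporter moves the peptides into the endoplasmic reticulum, where tapasin and its partner chaperones load them onto a heavy chain paired with beta-2 microglobulin. In resting liver, hepatocytes carry little of the inducible proteasome, and interferon-gamma is known to induce most of this machinery.

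The upstream sequences of 4 members are shown because they come from genes on both sides of the call after Con A. B2m and H2-K1 were not called, Psmb8 was called, and Psmb9 and Tap1, both called, are read in opposite directions from neighbouring starts. The sequences are those of RefSeq on GRCm38.p6, written 5′ to 3′ on the strand of the gene, with motif matches in capitals. Capitals mark only the exact patterns named here, so other forms of the same elements stay in lower case. The B2m sequence holds the 249 bases before the start on the plus strand of chr2:122147437-122147685, with GAAANNGAA, the core of an interferon-stimulated response element, followed by CCAAT, the Y box, in its reverse complement.
B2m: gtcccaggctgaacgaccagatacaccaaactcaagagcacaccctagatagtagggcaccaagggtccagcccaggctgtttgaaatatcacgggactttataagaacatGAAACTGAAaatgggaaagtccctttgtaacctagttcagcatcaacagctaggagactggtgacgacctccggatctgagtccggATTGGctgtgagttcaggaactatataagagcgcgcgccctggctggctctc
For H2-K1 the 250 bases before the start lie on the minus strand of chr17:34000348-34000597, and the capitals mark GGGNNTTCC, an NF-kB site, and the reverse complement of the Y box.
H2-K1: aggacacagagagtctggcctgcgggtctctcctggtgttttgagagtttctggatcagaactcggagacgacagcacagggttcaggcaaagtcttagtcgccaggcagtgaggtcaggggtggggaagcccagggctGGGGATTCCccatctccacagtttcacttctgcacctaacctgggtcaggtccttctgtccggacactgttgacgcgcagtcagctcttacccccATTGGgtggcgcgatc
From Psmb8 a stretch of 29 bases at chr17:34198088-34198116 on the plus strand is given, with TTCNNNGAA, the STAT dimer site, in capitals. It lies before the RefSeq start but inside the longer Psmb8 transcript that the table lists.
Psmb8: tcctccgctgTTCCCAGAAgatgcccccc
Between Psmb9 and Tap1 the annotated RefSeq starts lie 225 bases apart on opposite strands, and the 30 bases next to the Psmb9 start are given on the Tap1 strand at chr17:34187331-34187360, with the Y box in capitals. These bases lie inside the longer Psmb9 transcript of the table.
Tap1: tttCCAATcagcggctgcgcgcggtgcagg

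Promoters from 250 bases before to 50 bases after a start were listed for 9 of the 10 members, and Tap2 had no entry. On either strand, GAAANNGAA was found in the promoters of B2m and Psme1 and in 8.56% of 32851 promoters. TTCNNNGAA was found for Psmb8 alone among the 9 members and in 8.3% of all promoters. GGGNNTTCC was found for H2-K1 alone among the 9 and in 5.82% of all. The Y box was held by 5 members, B2m, Tapbp, H2-K1, Psmb9 and Tap1, and by 37.4% of all promoters, and the match of Psmb9 and that of Tap1 are the same letters. A match is a description of letters in this window only. Other forms of these elements were not searched, so a promoter without a match may still hold one.

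The members were spread over 4 chromosomes, and 6 of them lay on chromosome 17 within the major histocompatibility complex (mm10, positions of the 1 transcript that the table lists for each gene). In the order along the chromosome these were Tapbp (33915899 to 33920415), H2-K1 (33996017 to 34000289), Psmb9 (34181988 to 34187764), Tap1 (34187553 to 34197225), Psmb8 (34197721 to 34200918) and Tap2 (34203527 to 34216321). Psme1 (55578123 to 55581346) and Psme2 (55587441 to 55591087) were neighbours on chromosome 14, Psmb10 lay on chromosome 8 (105935728 to 105938392) and B2m on chromosome 2 (122147686 to 122153083). Some of these genes share exonic sequence with others. The listed transcripts of Psmb9 and Tap1 overlap on opposite strands over 212 exonic bases, and Tapbp was listed with a short transcript of 413 exonic bases, of which 280 overlap other genes. Genes on the opposite strand overlap 683 exonic bases of Tap2 and 186 of Psmb8. Of the stretches of 50 bases in the Psme2 transcript, 59.3% also occur in transcripts of other genes, above all in its near copy Psme2b, and the share was 13.8% for Psme1, 9.07% for H2-K1 and 0 for Psmb8, Psmb9, Psmb10 and B2m. The values of Psme2, and to a lesser degree those of Psme1, H2-K1, Tapbp, Psmb9, Tap1, Tap2 and Psmb8, are therefore uncertain, since the counting of shared reads and its use of strand are not given in the sources used here.

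The deposited value of a gene in a mouse was a whole number that had already been normalized between mice. Totals lay between 17649654 and 17657159, the median was 352 in every mouse, and 9258 of the 10000 highest ranks held the same value in all 12 mice, so a value is close to a rank and sequencing depth is unknown. At the top of the table the values came in groups of 10 with gaps between them. B2m stood there at ranks 50 to 70 and took 3 values over the 12 mice, in a range where neighbouring values of the table lay 0.21 to 0.39 apart on the log2 scale. H2-K1 at ranks 78 to 148 took 6 values, and for the other members the neighbouring values lay at most 0.08 apart. Con A replicate 4 stood apart on the second principal component, at -55.2 against -15.0 to 7.57 for the other 3 Con A mice, and the calls of the members and lists are given with and without it. As a check of the tissue, the summed value of 8 hepatocyte markers was between 601858 and 1145879 in every mouse. Differences below come from limma on log2(value + 1) in one fit of 12 mice, a fold change is taken on that scale, and calls needed a p below 0.05 after Benjamini-Hochberg adjustment over all genes together with a fold change above 1.5.

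After Con A, 8 of the 10 members were called up and none was called down. In Con A versus Control, 19.5% of all genes were called up and 19.2% down. The median log2 fold change was 1.25 over the members and 0.05 over all genes. The 3 immunoproteasome subunits, both PA28 subunits and all 3 transport and loading genes were called, while the class I light chain B2m and the heavy chain H2-K1 were not. In 8 members every Con A mouse lay above every Control mouse (27.1% of all genes), and in H2-K1 every Con A mouse lay below (23.4% of all genes). Without Con A replicate 4 the same 8 members were called up, by 1.95-fold for Psme1 to 6.80-fold for Tap1, against 18.3% of all genes (18.0% down), 9 members were apart from Control on the high side (30.0% of all genes) and H2-K1 on the low side (26.1%).

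The inducible catalytic subunits formed the first group. Psmb8, the inducible chymotrypsin-like subunit, had values of 721, 652, 712 and 569 in Control replicates 1 to 4, 3740, 3639, 3912 and 1587 in the Con A mice and 3486, 3262, 3224 and 2394 in the Con A + MSCs mice. Both Con A groups lay wholly above Control, and replicate 4 was the lowest mouse of each group. The rise was 4.58-fold (log2 fold change 2.20, SE 0.25, limma adjusted p = 1.89e-05), and 5.69-fold without Con A replicate 4. Psmb9, which takes the place of the caspase-like subunit, had 608, 352, 474 and 346 in Control, 1480, 1278, 1488 and 576 in Con A and 1430, 1400, 1250 and 906 in Con A + MSCs. Here Con A replicate 4 lay inside the Control range, below Control replicate 1, so these groups overlapped. Psmb9 rose 2.60-fold (log2 1.38, SE 0.29, limma adjusted p = 0.00163), and without that mouse 3.26-fold, with no overlap. Psmb10, the inducible trypsin-like subunit, had 992, 855, 1073 and 800 in Control, 2336, 1902, 2304 and 1586 in Con A and 2096, 1836, 1902 and 1654 in Con A + MSCs. The Con A values stood clear of Control, and the rise was 2.17-fold (log2 1.12, SE 0.14, limma adjusted p = 4.71e-05).

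The PA28 genes rose least among the called members. Psme1, which encodes its alpha subunit, had 2034, 2034, 1759 and 1774 in Control, 3795, 3584, 3738 and 2304 in Con A and 4366, 4097, 3795 and 3118 in Con A + MSCs. All Con A mice were above all Control mice, with replicate 4 closest to them, and the rise was 1.74-fold (log2 0.80, SE 0.16, limma adjusted p = 0.00142). Psme2, which encodes the beta subunit, had 1362, 1142, 1231 and 1024 in Control, 2584, 2401, 2503 and 1488 in Con A and 2763, 2344, 2584 and 2004 in Con A + MSCs. The order of the groups was the same as for Psme1, again with Con A replicate 4 next to Control, and the rise was 1.85-fold (log2 0.89, SE 0.18, limma adjusted p = 0.00103).

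The 3 transport and loading genes rose by 3.48-fold to 6.37-fold. Tap1, a chain of the peptide transporter, had 524, 736, 536 and 518 in Control, 4032, 3798, 3856 and 3003 in Con A and 3003, 2439, 2439 and 2374 in Con A + MSCs. Its rise was the largest of the 10 members, 6.37-fold (log2 2.67, SE 0.14, limma adjusted p = 8.68e-08), and the Con A mice lay close together compared with that distance. Tap2, its partner in the transporter, had 545, 484, 508 and 506 in Control, 2859, 2217, 2755 and 1300 in Con A and 1680, 1587, 1838 and 1365 in Con A + MSCs. Con A replicate 4 was the lowest of the 8 Con A-treated mice and still above every Control mouse, and the rise was 4.27-fold (log2 2.09, SE 0.21, limma adjusted p = 6.5e-06). Tapbp, which encodes tapasin, the bridge between the transporter and the empty class I molecule, had 1654, 2306, 2140 and 2284 in Control, 8224, 7334, 8890 and 5130 in Con A and 6310, 5904, 5380 and 5380 in Con A + MSCs. The groups with Con A were clear of Control, and the rise was 3.48-fold (log2 1.80, SE 0.17, limma adjusted p = 4.54e-06).

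The members that encode chains of the class I molecule itself, B2m and H2-K1, were not called. H2-D1, a heavy chain outside the members, was called up and is described further below. B2m, the invariant light chain, had the value 29578 in all 4 Control mice, 34238 in all 4 Con A mice and 44248, 34238, 34238 and 34238 in the Con A + MSCs mice. Its whole difference after Con A was 1 step of the value scale, a log2 fold change of 0.21 (SE 0.12, limma adjusted p = 0.161), so every mouse was higher while the size of the change could not be resolved. H2-K1, the K heavy chain of the classical class I molecules, had 20838, 25781, 17632 and 20838 in Control, 16300, 15057, 15057 and 16300 in Con A and 17632, 16300, 15057 and 13920 in Con A + MSCs. All Con A mice lay below all Control mice, with a log2 fold change of -0.43 (SE 0.13, limma adjusted p = 0.0167), which is 1.35-fold lower and under the minimum of 1.5, and 1 Con A + MSCs mouse was level with the lowest Control mouse. H2-K1 was the only member with a lower mean after Con A.

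**Figure D1:**
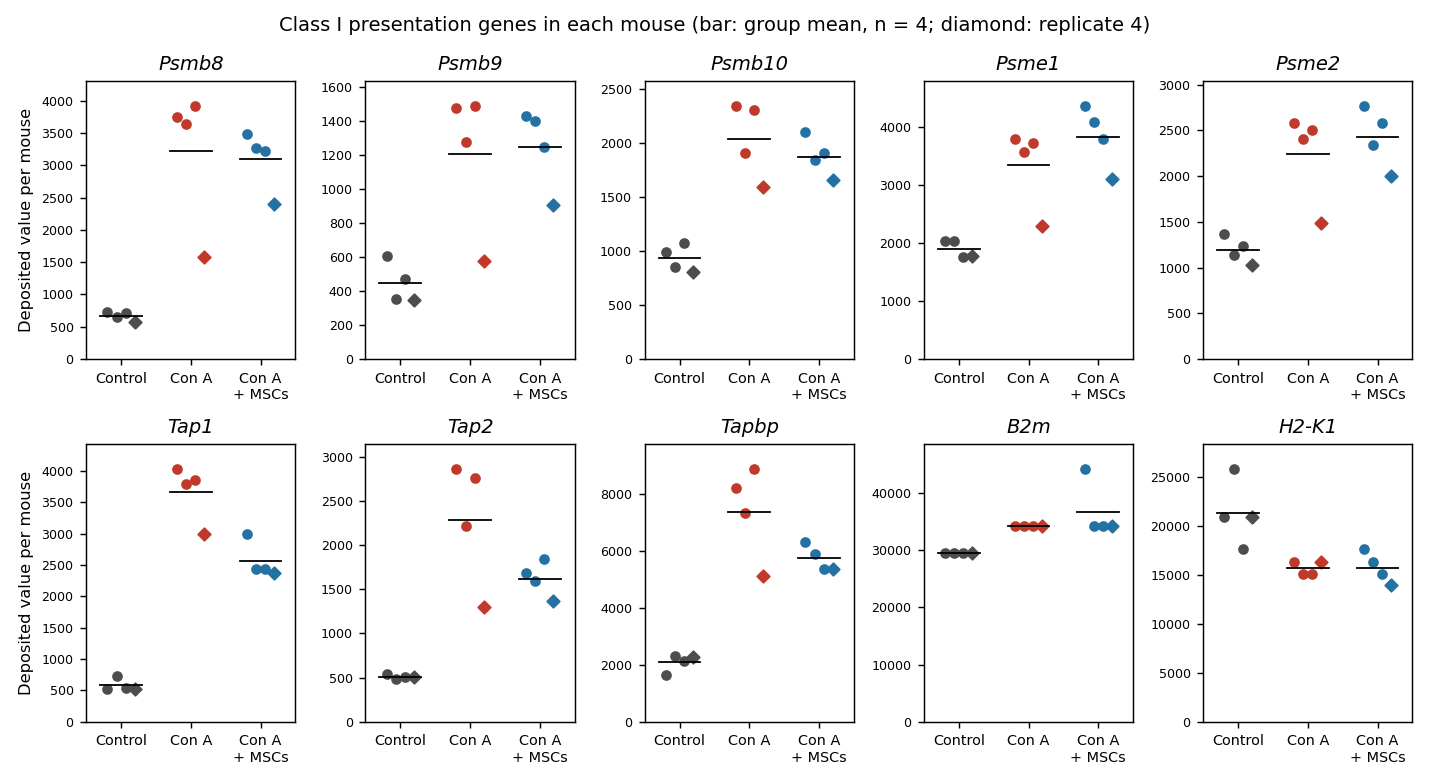
Deposited value (y axis, normalized units from 0) of each member in each mouse, with 1 panel per gene, 4 mice per group, bars at group means and diamonds for replicate 4. Both Con A groups sit above Control in most panels, Con A replicate 4 is the lowest Con A mouse in 8 of them, B2m moves in steps and H2-K1 is highest in Control.

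No member was called between Con A + MSCs and Con A, where 4.20% of all genes were called up and 4.38% down. Those shares rested on single mice, since the 969 genes called became 7 without Con A replicate 1, 18 without Con A + MSCs replicate 2 and 7 without Con A + MSCs replicate 3, 285 to 563 without Con A replicate 3 or 4 or Con A + MSCs replicate 1, and 1575 without Con A replicate 2. With the unadjusted limma p and the same minimum fold the count of members was also 0, against 1697 of all 11289 genes (910 up and 787 down). The median log2 fold change was 0.01 over the members and 0.00 over all genes. This comparison shares its Con A mice with the previous one. At an adjusted p below 0.05 without a minimum fold 1 member passed, Tap1, with a log2 fold change of -0.52 (SE 0.14, limma adjusted p = 0.0376), 1.43-fold lower. At that setting 1485 of all 11289 genes passed, 734 up and 751 down. With each of the 12 mice left out in turn, the adjusted p of Tap1 was below 0.05 in 7 fits and not in the other 5, which left out Con A replicate 1 or 3 or Con A + MSCs replicate 2, 3 or 4 (limma adjusted p = 0.057 to 0.101, log2 fold change -0.49 to -0.47). For Tap1, 3 of the 4 Con A + MSCs mice lay below every Con A mouse, and the fourth had the same value as Con A replicate 4, 3003. Tap2 and Tapbp were at -0.44 (95% interval -0.89 to 0.01, limma adjusted p = 0.15) and -0.34 (interval -0.70 to 0.03, limma adjusted p = 0.175). The immunoproteasome subunits were near 0, with Psmb8 at 0.01 (interval -0.53 to 0.55), Psmb9 at 0.12 (interval -0.51 to 0.75) and Psmb10 at -0.11 (interval -0.42 to 0.21). Psme1 was at 0.21 (interval -0.14 to 0.57), Psme2 at 0.13 (interval -0.25 to 0.51), B2m at 0.09 (interval -0.17 to 0.36) and H2-K1 at 0.00 (interval -0.29 to 0.29). These intervals do not show that the genes were alike in the 2 groups. Those of Psmb8 and Psmb9 were the widest among the members, and that of Psmb9 extended past a 1.5-fold rise.

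The members called in this comparison also depended on which mouse was left out. When Con A replicate 4 was left out, 2 members were called down, Tap1 at -0.61 (SE 0.13, limma adjusted p = 0.039) and Tap2 at -0.69 (SE 0.12, limma adjusted p = 0.0305), against 1.32% of all genes called down and 1.20% up. Tapbp then stood at -0.50 (limma adjusted p = 0.055) and Psmb8 at -0.30 (limma adjusted p = 0.178). In these 4 genes, Psmb8, Tap1, Tap2 and Tapbp, every Con A + MSCs mouse was then below each of the 3 remaining Con A mice, as in 13.3% of all genes. Psmb9 was at -0.20 and Psmb10 at -0.22, and Psme1 (0.04), Psme2 (-0.05), B2m (0.09) and H2-K1 (0.02) were nearest to 0. The median over the members was -0.21, with 7 of the 10 below 0. Without Con A + MSCs replicate 1, Tap1 alone was called, at -0.59 (limma adjusted p = 0.045), where 307 genes of the table were called down and 199 up. In the other 10 fits that left out 1 mouse no member was called. Some of these fits had few calls over the whole table, with 7 genes without Con A replicate 1. It was 18 without Con A + MSCs replicate 2 and 7 without Con A + MSCs replicate 3. Whether the transport genes differed from the proteasome genes in this comparison was not tested.

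Against Control, the Con A + MSCs mice had the same 8 members called up, with 13.6% of all genes called up, and in 9 members every mouse lay above Control (20.6% of all genes). The fold changes were 4.63 for Psmb8, 2.83 for Psmb9, 2.02 for Psmb10, 2.01 for Psme1, 2.03 for Psme2, 4.45 for Tap1, 3.15 for Tap2 and 2.76 for Tapbp, with limma adjusted p-values from 7.13e-07 for Tap1 to 0.00161 for Psmb9. On the log2 scale B2m was at 0.30 (limma adjusted p = 0.0657) and H2-K1 at -0.43 (limma adjusted p = 0.0232), again under the minimum fold.

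**Figure D2:**
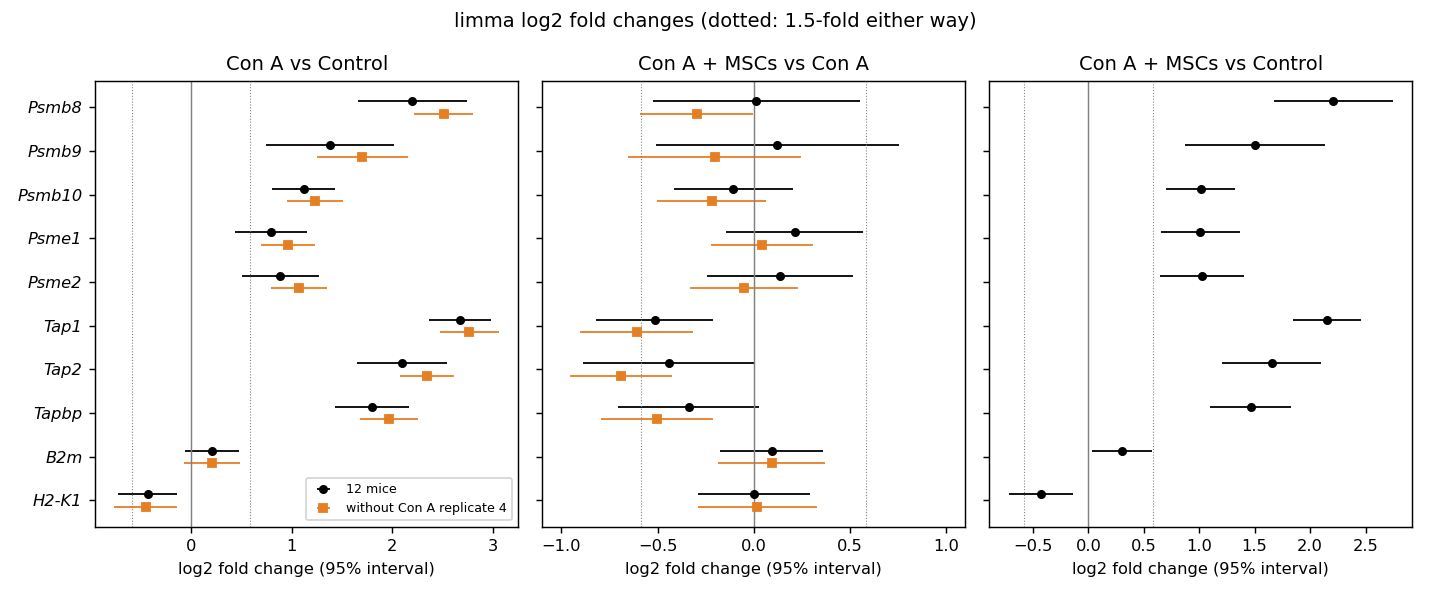
limma log2 fold changes (x axis) with 95% intervals for the 10 members in 3 comparisons, with 12 mice in black and without Con A replicate 4 in orange for the comparisons that use it. Without that mouse Tap1 (-0.61) and Tap2 (-0.69) pass the dotted line of 1.5-fold in the comparison of Con A + MSCs with Con A, while the rises after Con A stay in place.

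Each inducible catalytic subunit was set against the constitutive subunit it replaces, within each mouse, as a log2 ratio. The level of this ratio also depends on the lengths of the genes and is not a ratio of protein, so only its change between groups is compared. Of the constitutive subunits, Psmb5 had values of 970 to 1242 in Control, 1558 to 1926 in Con A and 1391 to 1858 in Con A + MSCs, and it rose after Con A with a log2 fold change of 0.74 (SE 0.12, limma adjusted p = 0.000273). Psmb6 was at 0.37 (limma adjusted p = 0.0134, under the minimum fold) and Psmb7 at -0.04 (limma adjusted p = 0.719). The log2 ratio of Psmb8 to Psmb5 was -0.69 ± 0.10 (SD, n = 4) in Control, 0.77 ± 0.70 in Con A and 0.88 ± 0.35 in Con A + MSCs. In Con A versus Control it differed by 1.46, with no overlap (two-sided exact permutation p = 0.0286, the smallest that 4 against 4 mice can give, and 0.0514 after Benjamini-Hochberg adjustment over 9 tests). For Psmb9 to Psmb6 the means were -1.75 ± 0.27, -0.74 ± 0.71 and -0.73 ± 0.41 in the same order, and the Con A difference of 1.01 did not separate the groups (exact permutation p = 0.0857, adjusted 0.129), since Con A replicate 4, at -1.80, lay within the Control range. For Psmb10 to Psmb7 they were -0.81 ± 0.19, 0.35 ± 0.27 and 0.01 ± 0.06, a difference of 1.16 after Con A (exact permutation p = 0.0286, adjusted 0.0514).

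Between Con A + MSCs and Con A the log2 ratios differed by 0.11 for Psmb8 to Psmb5 (exact permutation p = 0.829), 0.01 for Psmb9 to Psmb6 (exact permutation p = 0.943) and -0.34 for Psmb10 to Psmb7 (exact permutation p = 0.114). Without Con A replicate 4 these differences were -0.24, -0.34 and -0.46, of which the last, for Psmb10 to Psmb7, separated the groups (exact permutation p = 0.0286). Con A + MSCs lay above Control by 1.57, 1.03 and 0.83, each with no overlap (exact permutation p = 0.0286, adjusted 0.0514). With all 12 mice none of the 9 differences passed after adjustment, and 5 had an unadjusted p below 0.05. Without Con A replicate 4 the differences after Con A were 1.81, 1.37 and 1.29 in the same order, each with no overlap (exact permutation p = 0.0286). That is also the smallest p of 3 against 4 mice, so the adjusted value of 0.0367 follows from how many of the 9 tests lie at the smallest p and shows no larger effect.

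**Figure D3:**
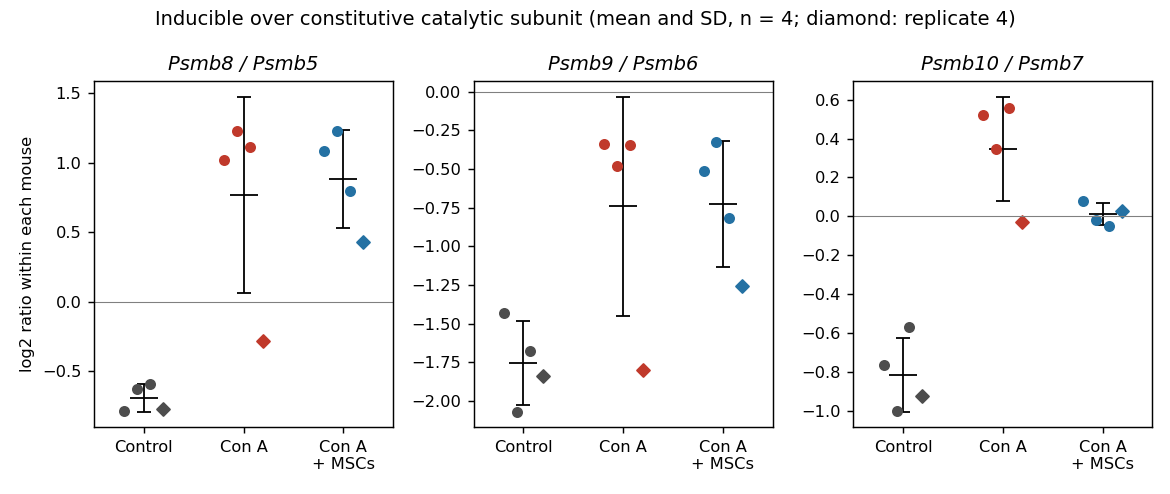
Log2 ratio of each inducible catalytic subunit to its constitutive counterpart within each mouse (y axis), by group, with the mean and SD of 4 mice and diamonds for replicate 4. Con A replicate 4 is at -0.28 for Psmb8 to Psmb5, between the groups, and at -1.80 for Psmb9 to Psmb6, inside the Control range.

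Among other genes of the pathway, the peptide trimming and loading chaperones had 9 of 15 called up after Con A and none down, with a median log2 fold change of 0.80, where 19.5% of all genes were called up and 19.2% down with a median of 0.05. Without Con A replicate 4 the count was 11 up and none down, against 18.3% and 18.0% of all genes. Pdia3, the oxidoreductase that works with tapasin, rose by 1.93 (SE 0.22, limma adjusted p = 2.3e-05), Canx, calnexin, which holds the new heavy chain, by 1.36 (SE 0.19, limma adjusted p = 0.000101), and Thop1, a cytosolic oligopeptidase that destroys peptides, by 1.16 (SE 0.17, limma adjusted p = 0.000104). In Con A + MSCs versus Con A 1 of the 15 was called (4.38% of all genes were called down), Npepps, a cytosolic aminopeptidase, at -0.66 (SE 0.15, limma adjusted p = 0.0259), and this call was lost in 4 of the 12 fits that left out 1 mouse, without Con A replicate 1 or 4 or Con A + MSCs replicate 2 or 3 (limma adjusted p = 0.0556 to 0.0806). Of 8 other proteasome activators, inhibitor and assembly factors, 3 were called up after Con A and none down, with or without Con A replicate 4. Psmg4, an assembly chaperone, was at 0.96, Psme3, the nuclear cap related to PA28, at 0.82 and Psme4, another activator, at 0.63.

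The other class I heavy chains and class I-like genes moved in both directions. Of 23 listed, 14 were in the table, of which 8 were called up and 4 down after Con A, with a median of 0.74, against 19.5% of all genes up and 19.2% down. Without Con A replicate 4 it was 8 up and 3 down, against 18.3% and 18.0%. H2-T22, a non-classical molecule seen by gamma delta T cells, had 1741 to 1768 in Control and 3701 to 8248 in Con A and rose by 1.88 on the log2 scale (SE 0.22, limma adjusted p = 2.14e-05). H2-Q1, of the Q region, had 230 to 616 in Control and 92 to 180 in Con A, a log2 fold change of -1.95 (SE 0.30, limma adjusted p = 0.000181). Mr1, which presents vitamin B metabolites and not peptides, had 103 to 170 in Control and 30 to 46 in Con A, a log2 fold change of -1.89 (SE 0.23, limma adjusted p = 2.75e-05). H2-Q4, also of the Q region, rose by 1.44 after Con A and was called down with MSCs, at -0.60 (SE 0.17, limma adjusted p = 0.0451), a call lost in 9 of the 12 fits that left out 1 mouse (limma adjusted p = 0.0518 to 0.109) and kept only without Control replicate 1, Con A replicate 2 or Con A + MSCs replicate 1. Chosen after its values were seen, H2-D1, the D heavy chain, was at 10925 to 13184 in Control and 17632 to 18894 in Con A and rose by 0.60 (SE 0.13, limma adjusted p = 0.00185), while H2-K1 was lower after Con A. H2-D1 also stood where the values come in steps, and it took only 2 values in Control and 2 in Con A. H2-K1 and H2-D1 share sequence, since 7.17% of the stretches of 50 bases of H2-K1 occur in H2-D1, so part of either value may belong to the other.

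The genes of interferon signalling and class I regulation had 11 of 20 called up after Con A and none down, with or without Con A replicate 4, against 19.5% of all genes up and 19.2% down (18.3% and 18.0% without that mouse). The median was 0.74, and Ifng, of the 21 listed, was not analysed here. Socs1, the feedback inhibitor of JAK-STAT signalling, had 7, 19, 13 and 10 in Control, 669, 396, 471 and 735 in Con A and 272, 149, 165 and 249 in Con A + MSCs. It rose by 5.46 on the log2 scale after Con A (SE 0.30, limma adjusted p = 1.02e-07) and was called down with MSCs, at -1.44 (SE 0.30, limma adjusted p = 0.0224), also without Con A replicate 4 (-1.30, limma adjusted p = 0.0492), but not without Con A replicate 1 or Con A + MSCs replicate 2 or 3 (limma adjusted p = 0.0646 to 0.0744). All Con A + MSCs mice were below all Con A mice and above all Control mice. Irf8, an interferon regulatory factor of myeloid cells, rose by 2.01 (SE 0.25, limma adjusted p = 4.04e-05). Irf1 and Nlrc5, named for their known role as activators of class I genes after their values were seen, rose by 1.52 (SE 0.20, limma adjusted p = 4.88e-05) and 0.90 (SE 0.12, limma adjusted p = 6.11e-05), and with MSCs stood at -0.63 (limma adjusted p = 0.0523) and -0.33 (limma adjusted p = 0.0784), or -0.48 (limma adjusted p = 0.124) and -0.31 (limma adjusted p = 0.149) without Con A replicate 4. The genes of these related lists named here as called after Con A were also called without that mouse. Irf1 was highest in Con A replicate 4, at 2284, and so were Socs1 and Irf8, at 735 and 757.

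**Figure D4:**
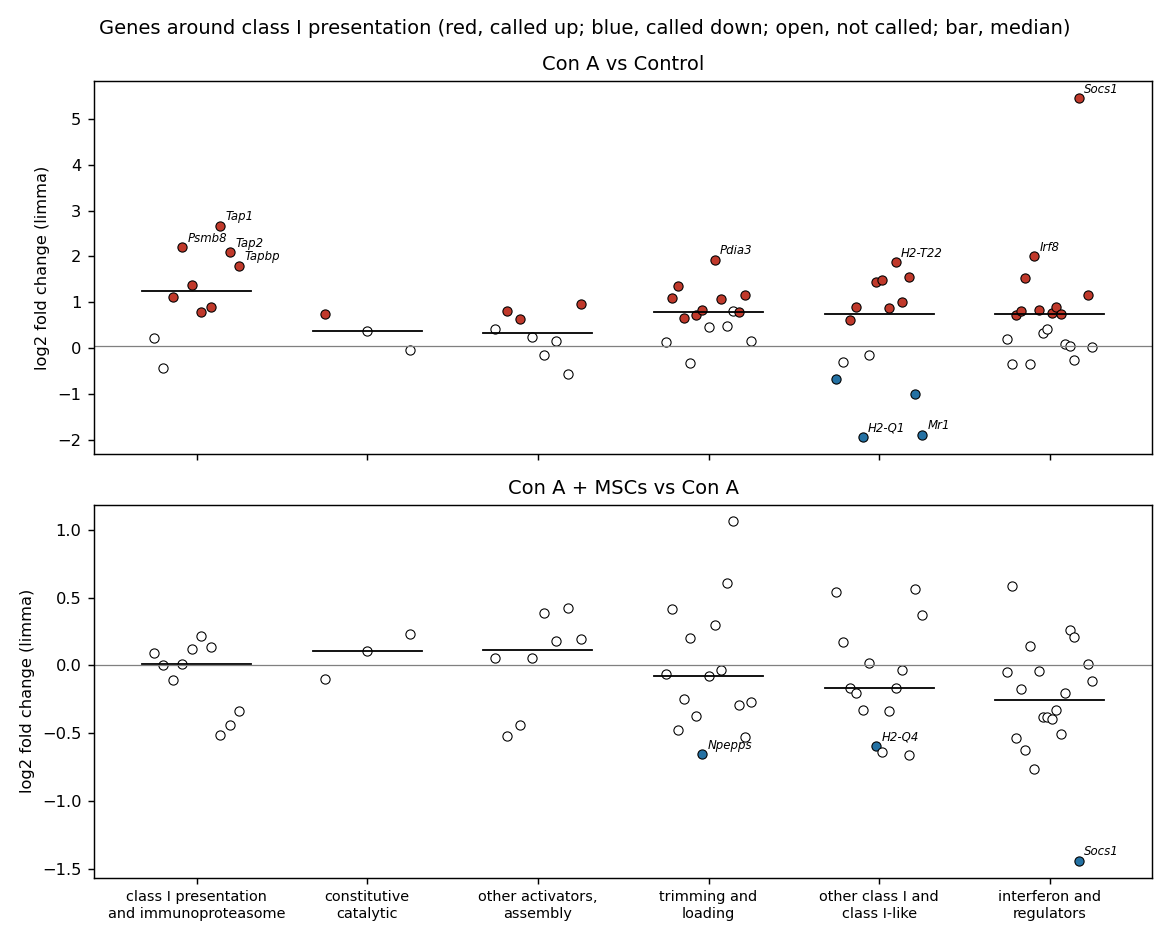
limma log2 fold changes (y axis) of the members and of 5 related gene lists after Con A (top) and with MSCs against Con A (bottom), with called genes filled and bars at list medians; 1 gene of the last list is counted in its median but not plotted. The member median after Con A is 1.25, with the other lists between 0.33 and 0.80, and 3 genes are called with MSCs, Socs1, Npepps and H2-Q4.

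Between the outermost members on chromosome 17, over 300423 bp, there were 13 other genes of the table. After Con A, 1 of them was called up, 2 were called down and 10 were not called, against 19.5% of all genes up and 19.2% down, with a median log2 fold change of -0.16. H2-Ke6, a steroid dehydrogenase gene, was at -0.97 (limma adjusted p = 3.70e-06), Slc39a7, a zinc transporter, at 0.77 (limma adjusted p = 0.00381), and H2-DMb1, a chain of the class II peptide exchanger, at -0.69 (limma adjusted p = 0.068). The other call was Ring1, a Polycomb gene, at -0.66. Without Con A replicate 4 the counts were the same, against 18.3% and 18.0% of all genes, but H2-DMb1 was called down and Ring1 was not.

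Summed levels of cell type markers differed between the same groups, and some genes of a list were called against the rest of it. The summed value of 8 hepatocyte markers was 908289 to 1145879 in Control, 601858 to 645816 in Con A and 628296 to 710618 in Con A + MSCs. For 5 of 16 T and NK cell markers in the table it was 153 to 250, 530 to 1065 and 570 to 899, with Cd8a at 0 in a Control mouse, and Cd3e, Cd3d, Cd3g and Cd4 were not analysed here. The 8 of 10 monocyte and neutrophil markers in the table summed to 938 to 1329, 1610 to 2697 and 1770 to 2992, and the 5 pan leukocyte markers to 1096 to 1447, 1725 to 2608 and 1610 to 2488. The 9 of 10 macrophage and Kupffer cell markers in the table summed to 4815 to 7327, 1763 to 2573 and 862 to 2483, and the 8 markers of sinusoidal endothelium to 3245 to 4663, 1470 to 2034 and 1887 to 2446. None of the 5 B cell markers was in the table. After Con A, Zap70 was called down beside 4 T and NK cell markers called up, Lyz2 down beside 7 monocyte and neutrophil markers up, Cd68 up beside 8 macrophage and Kupffer cell markers down, and Lyve1 up beside 6 endothelial markers down. Con A replicate 4 was the lowest Con A mouse for T and NK cell (530), monocyte and neutrophil (1610), endothelial (1470) and pan leukocyte (1725) markers. The same mouse was the highest Con A mouse for hepatocyte markers (645816). Con A + MSCs replicate 4 was the lowest of its group in all 6 sums, at 628296 for hepatocyte, 570 for T and NK cell, 1770 for monocyte and neutrophil, 1610 for pan leukocyte, 862 for macrophage and Kupffer cell and 1887 for endothelial markers. Control replicate 4 was the lowest of its group for T and NK cell markers (153). Their part in the changes of the members was not tested.

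Several members had the same order of mice within a group. Relative to Control, the median over the 10 members was 1.55, 1.30, 1.55 and 0.60 on the log2 scale in Con A replicates 1 to 4 and 1.41, 1.31, 1.25 and 0.95 in the Con A + MSCs mice. Con A replicate 4 was the lowest Con A mouse for 8 of the 10 members, and for 36.1% of all genes. Con A + MSCs replicate 4 was likewise the lowest mouse of its group for 8 members (27.0% of all genes), and replicate 1 the highest for 9 (18.8% of all genes). The members nearest to the median profile over the 12 mice were Psmb10, Psme2 and Psmb9, with root mean square differences of 0.20, 0.25 and 0.26 on the log2 scale, and H2-K1 was the farthest, at 1.39. Outside the members, the genes most like this profile by that measure were Tspo (0.14), a protein of the outer mitochondrial membrane, Cd47 (0.17), a surface protein that restrains phagocytosis, Tax1bp1 (0.20), an autophagy receptor, Il17rb (0.21), a subunit of the interleukin-25 receptor, and Pbdc1 (0.23).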

How the data were processed

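Liver mRNA of 12 mice (poly-A selection, paired-end reads) was measured in 3 groups of 4, taken from the sample labels. The submitters' processing notes name Bowtie2 2.2.1, RSEM 1.2.18 and mm10. The authors deposited, for each gene and mouse, a whole-number score that had already been normalized between mice and is not a raw count. The normalization is not given in the sources used here, and the authors name DESeq2 for their differential expression, which needs counts and was not run.

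The scores were taken as log2(score + 1), with a pseudocount of 1, and limma 3.58.1 (R 4.3.3; lmFit, eBayes with a trend) was run over 12 mice without covariates. Benjamini-Hochberg adjustment covered 11289 genes. Ratios of subunits were compared by two-sided exact permutation tests. Intervals are 95% intervals. Depth is unknown, and precision is set by the 4 mice of a group. No column of values was left out. The members and gene lists were chosen with earlier results of these data known.

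Named were all members, their constitutive counterparts, the 3 genes of each related list with the largest change among those called after Con A, any called with MSCs, the 3 most changed neighbours on chromosome 17 and the 5 genes nearest the members' median profile. A gene that meets this rule is not reported here. Alternatives were a pseudocount of 10, a mean of at least 100, median centring, quantile normalization, no trend, only the 8 mice compared, unadjusted p, a fold above 2, each mouse left out, the replicate number as a block and, added after the data were seen, no minimum fold, the related lists without Con A replicate 4 and their genes called with MSCs without each mouse.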

Additional observations from a re-analysis of the deposited data

Results flagged for a closer look

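In groups of 4 mice, the highest or lowest mouse was compared with the others by the gap to its nearest neighbour divided by the range, on the log2 scale, against a critical value of 0.829. Of 46 groups tested, over the members, the constitutive subunits and their ratios, 9 had a mouse past it, where chance flags about 1 group in 20. Of the 9, 6 were Con A replicate 4, on the low side. They were its values of Psmb8 (1587), Psmb9 (576), Psme1 (2304) and Psme2 (1488) and its log2 ratios of Psmb8 to Psmb5 (-0.28) and of Psmb9 to Psmb6 (-1.80). These 6 are not independent, since they come from 1 liver. The other 3 were high: Tap1 in Control replicate 2 (736), Tap1 in Con A + MSCs replicate 1 (3003) and B2m in Con A + MSCs replicate 1 (44248), the last of which is 1 step of the value scale above its group. In that B2m group the other 3 mice were tied, so any different value would have been flagged. The chance rate does not apply to it.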

How the results depend on the processing

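The 8 members called up after Con A and the 8 called up in Con A + MSCs versus Control numbered 8 in every fit that left out 1 mouse. With a fold above 2 the first count was 6, without Psme1 and Psme2. With MSCs versus Con A the count of members was 0, with 0 to 2 when 1 mouse was left out, and 1 without a minimum fold. No called fold change of a member reversed under any of these alternatives. Over all genes, the calls in Con A versus Control (4379) became 2391 with a fold above 2. The 969 calls with MSCs versus Con A became 1697 with the unadjusted p, 353 with a fold above 2, 1485 without a minimum fold, and 7 to 1575 when 1 mouse was left out, with 7 both without Con A replicate 1 and without Con A + MSCs replicate 3, 18 without Con A + MSCs replicate 2 and 1575 without Con A replicate 2. Against Control, the 3015 calls with MSCs became 1539 with a fold above 2 and 4604 without a minimum fold.

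Same-numbered deviations correlated between -0.12 and 0.38 over the 12 pairs of mice, and were positive in all 3 comparisons for replicate 4 (0.17, 0.24 and 0.11) but not for the other numbers, so the numbers were not taken as pairs. With the replicate block the members called stayed at 8, 0 and 8, and the genes called with MSCs versus Con A went from 969 to 1297. As 4 pairs, the ratios cannot go below an exact p of 0.125, which was the value with the replicate block for the 5 ratio differences at 0.0286 without it. When 1 mouse was left out, the ratios with an adjusted p below 0.05 had it without Con A replicate 4, where more of the 9 tests lay at the smallest p. The ratio of Psmb8 to Psmb5 then ranged from 1.31 to 1.81 after Con A, Psmb9 to Psmb6 from 0.88 to 1.37 and Psmb10 to Psmb7 from 1.09 to 1.29, and, with MSCs versus Con A, Psmb10 to Psmb7 ranged from -0.46 to -0.27. Depth is unknown, steps of the value scale limit B2m and H2-K1 and, outside the members, H2-D1 and Pdia3, and shared sequence limits Psme2.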

Other observations

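Replicate 4 was the lowest mouse in all 3 groups for 5 of the 10 members, Psmb8, Psmb9, Psmb10, Psme2 and Tap1, and for 4.33% of all genes. The shares for replicates 1, 2 and 3 were 0.939%, 2.16% and 0.726%, with 0 members each. The labels tie no day, litter or batch to the replicate number, and this was seen after the values were known and was not tested.

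Ratios within a mouse, also chosen after the values were seen and given as a description, were as follows. The ratio of H2-K1 to H2-D1 was 1.91, 1.96, 1.61 and 1.58 in Control replicates 1 to 4, 0.924, 0.797, 0.854 and 0.863 in Con A and 0.933, 0.924, 1.08 and 0.924 in Con A + MSCs, so both groups with Con A lay below Control. The ratio of Tap1 to Psmb8 was 0.727, 1.13, 0.753 and 0.910 in Control, 1.08, 1.04, 0.986 and 1.89 in Con A and 0.861, 0.748, 0.757 and 0.992 in Con A + MSCs, and all 3 groups overlapped. Within Con A replicate 4, Psmb8 (1587) and H2-T22 (3701) were the lowest of the Con A mice, while Socs1 (735), Irf1 (2284), Irf8 (757) and H2-Q4 (4184) were the highest.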
